A study of Mus musculus with 4 samples.

Results

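The 7 genes described here encode the main receptor for endocannabinoids in the brain and the main enzymes that make and break down its ligands: Cnr1, Dagla, Daglb, Mgll, Abhd6, Napepld and Faah. They were chosen by name, out of 31899 genes listed in all 4 libraries, and each was measured singly. Nuclei came from the microdissected posterior substantia innominata, a basal forebrain region, of wild-type mice aged 8 weeks. RNA of single nuclei was captured in droplets with 10x Chromium 3′ chemistry, and each molecule was counted once through its unique molecular identifier (UMI). There were 2 libraries from males, called male 1 and male 2, and 2 from age-matched control females, called female 1 and female 2, and the aim given for the series was to quantify sex differences in neurons of this region. Whether the 2 libraries of a sex are separate animals cannot be read from the labels, so each p-value reflects the spread among these 4 libraries alone, which could be technical.

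Endocannabinoids are lipid messengers that neurons make on demand. In the best known scheme, a receiving neuron makes 2-arachidonoylglycerol through a diacylglycerol lipase (Dagla or Daglb), the lipid travels back across the synapse, and it activates the CB1 receptor (Cnr1) on the sending terminal, which lowers transmitter release. Monoacylglycerol lipase (Mgll) and Abhd6 break this lipid down, whereas anandamide, the other main ligand, is made partly by the phospholipase Napepld and is broken down by fatty acid amide hydrolase (Faah).

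Nuclei with 500 to 8000 genes and under 5% of UMIs from mitochondrial genes were kept, which left 8829 and 8577 in male 1 and male 2, and 10881 and 10581 in female 1 and female 2. A nucleus was classed by raw UMIs of a pair of marker genes, with at least 2 UMIs required for the pair. Chat and Slc5a7, genes of acetylcholine synthesis and choline uptake, marked cholinergic nuclei and were read first. Other nuclei were classed as Gad (Gad1 and Gad2, enzymes of GABA synthesis), Slc17a (Slc17a6 and Slc17a7, vesicular glutamate transporters), astrocyte (Gja1 and Aqp4), oligodendrocyte (Mog and Mag), oligodendrocyte precursor or OPC (Pdgfra and Cspg4) or microglia (Inpp5d and Csf1r). Nuclei that met 2 or more classes were left out. The Gad class, the largest, held 3909 and 3819 nuclei in males and 3086 and 2735 in females, and the cholinergic class, the smallest, held 76 and 86 in males and 136 and 78 in females. Levels are UMIs of a gene per 1e+06 UMIs summed over a class in a library (CPM), given for replicate 1 and then replicate 2 of each sex.

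The libraries stood apart by sex before any member was read. Total UMIs were 158132452 and 144035342 in males and 53098268 and 53679351 in females, and the median per kept nucleus was 10406 and 10015 in males and 4192 and 3806 in females. Both male matrices were written by 1 software version, the female ones by 2 earlier ones, and the males had 23 cell barcodes in common, the females 35, and any male with any female 0. Sex, depth, software and barcode set cannot be told apart in these data. Xist was at most 0.0694 CPM in males and at least 1509 CPM in females, which matches the labels. Of the nuclei kept, 19.6% and 20.8% in males and 47.7% and 46.2% in females met no class, and 13.2% and 12.1% in males and 5.16% and 5.54% in females met 2 or more.

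The classes were checked with further marker genes that had not formed them. All 7 cholinergic, 8 astrocyte, 8 oligodendrocyte, 6 OPC and 7 microglia markers had their highest mean level in their own class, as did 7 of 8 Slc17a markers and 4 of 6 Gad markers. Of the Gad markers, Slc32a1, the vesicular GABA transporter gene, reached 17.8 to 91.1 CPM in microglia and 16.4 to 60.5 CPM in Gad nuclei. The summed level of 5 neuron genes (Snap25, Rbfox3, Syt1, Stmn2 and Snhg11) gives the neuronal RNA found in glial nuclei. It ranged over the 4 libraries from 18.5% to 36.9% of the Gad level in astrocytes, 37.9% to 52.6% in oligodendrocytes, 23.8% to 42.1% in OPCs and 40.7% to 55.7% in microglia.

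All 7 members lie on autosomes. In GRCm38 with GENCODE vM21, Cnr1 spans chr4:33924593-33948831 on the plus strand and Faah chr4:115967145-116017926 on the minus strand. Mgll spans chr6:88724412-88828360 (plus), Dagla chr19:10245265-10304877 (minus), Daglb chr5:143464584-143505942 (plus), Napepld chr5:21662901-21701396 (minus) and Abhd6 chr14:8002902-8056763 (plus). RefSeq promoter windows of build GRCm38.p6 were found for 6 of the 7. The 250 bases before an annotated start are shown for the members whose level differed most between classes or between kinds of neuron, Cnr1 (the first of its starts), Mgll (the second of its starts), Daglb and Napepld. They lie at chr4:33924014-33924263 (plus), chr6:88724454-88724703 (plus), chr5:143464243-143464492 (plus) and chr5:21701623-21701872 (minus), and capitals mark the letters of a GC box, GGGCGG on either strand:
Cnr1: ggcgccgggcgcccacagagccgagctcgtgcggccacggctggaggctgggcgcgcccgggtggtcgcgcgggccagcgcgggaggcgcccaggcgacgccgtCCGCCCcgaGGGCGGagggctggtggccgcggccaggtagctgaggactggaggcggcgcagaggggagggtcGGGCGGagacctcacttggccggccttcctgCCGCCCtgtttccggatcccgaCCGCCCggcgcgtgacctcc
Mgll: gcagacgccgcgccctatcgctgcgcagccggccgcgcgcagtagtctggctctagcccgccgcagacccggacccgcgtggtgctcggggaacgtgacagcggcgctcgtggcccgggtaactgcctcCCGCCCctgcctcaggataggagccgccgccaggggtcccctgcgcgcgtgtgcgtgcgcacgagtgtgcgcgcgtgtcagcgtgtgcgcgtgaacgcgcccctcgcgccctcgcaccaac
Daglb: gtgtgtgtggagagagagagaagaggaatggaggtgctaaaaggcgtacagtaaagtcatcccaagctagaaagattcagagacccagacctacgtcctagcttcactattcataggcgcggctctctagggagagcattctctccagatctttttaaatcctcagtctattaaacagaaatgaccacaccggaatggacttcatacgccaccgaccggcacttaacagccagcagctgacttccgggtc
Napepld: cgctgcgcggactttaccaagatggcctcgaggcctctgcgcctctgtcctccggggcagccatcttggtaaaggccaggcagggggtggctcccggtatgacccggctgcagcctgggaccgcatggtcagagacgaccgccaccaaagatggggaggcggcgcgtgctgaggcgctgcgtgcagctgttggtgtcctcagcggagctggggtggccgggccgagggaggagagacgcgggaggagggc
The Cnr1 window held 5 GC boxes and was 79.2% G or C, and the Mgll window held 1 and was 74.8% G or C. Of the windows not shown, the other 2 of Cnr1 and the other 1 of Mgll held no GC box, and 1 of those of Cnr1 held ACAAAG, so that a count depends on the start chosen. For both genes the start shown is the only one whose window held a GC box. The Faah window, also not shown, held 2 GC boxes, and the Abhd6 windows 0 and 1. The windows of Daglb (49.2% G or C) and Napepld (69.6%) held none, nor did any of the 4 windows shown hold TATAAA, TGACGTCA, GAGGAAGT or ACAAAG or their reverse complements. Of 32851 RefSeq promoter windows of the same length, 32.7% held a GC box, 12.4% TATAAA, 1.55% TGACGTCA, 2.44% GAGGAAGT and 16.5% ACAAAG. A match of letters is a description and not a binding site.

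Every member differed between some classes, and each had its own ordering. Sums per library and class were compared in 1 edgeR quasi-likelihood fit with library as a block, adjusted over 12389 genes by the Benjamini-Hochberg method at 0.05, so a gene is called where its adjusted p is under that. Over 21 pairs of classes, Mgll was called in 15, Faah in 14, Napepld in 12, Cnr1 and Dagla in 10 each, Abhd6 in 9 and Daglb in 7. Of all genes tested, between 8.31% and 65% were called in a pair of classes, so counts of this size are not particular to these genes. Without male 2, Cnr1 was called in 6 pairs and Faah in 9, and without male 1, Abhd6 was called in 5.

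Set against Gad nuclei, the numbers of members called were 1 higher and 2 lower in astrocytes, where 56% of all genes were called in either direction. Of the others, 1 was higher and 4 lower in oligodendrocytes (65% of all genes called), 2 higher and 4 lower in OPCs (46.6%), 2 higher and 2 lower in microglia (55.2%), and none higher and 3 lower in cholinergic nuclei (23%). In Gad over Slc17a nuclei, 2 were higher and 1 lower (8.31% of all genes). The median log2 fold of the 7 members ranged from -0.55 in OPCs over Gad nuclei to 0.10 in Gad over Slc17a nuclei, and that of all genes lay between -0.02 and 0.06 in these 6 comparisons.

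**Figure D1:**
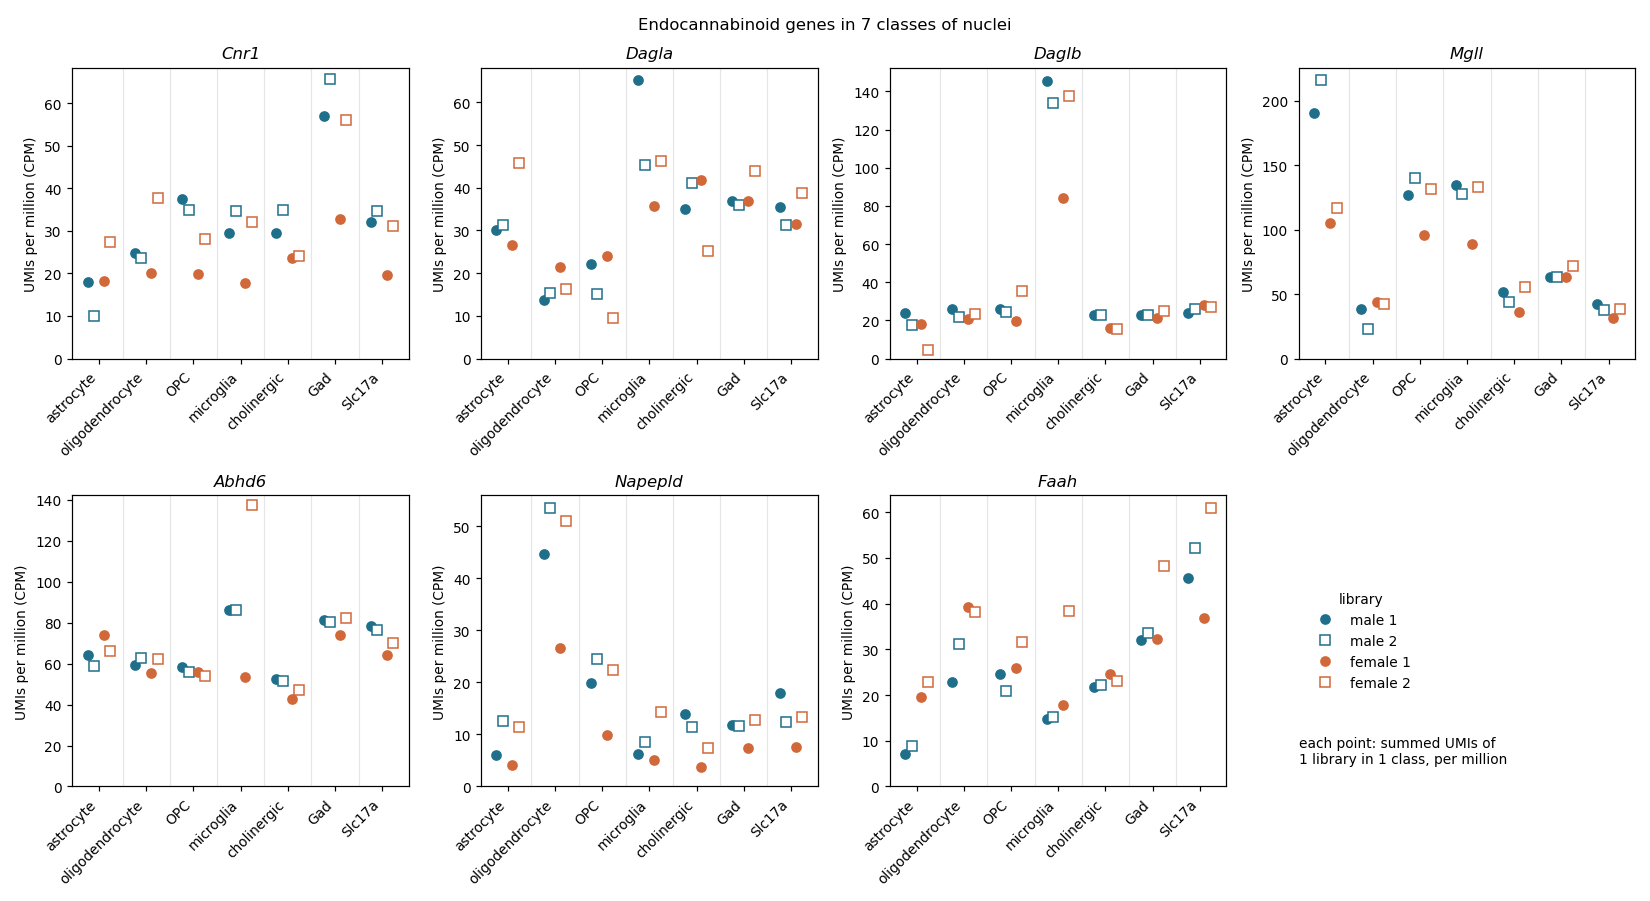
Level of each member (y axis, CPM, linear from 0) in the 7 classes (x axis), with 1 point per library, males left of females and replicate 2 as open symbols. Daglb stands at 83.9 to 145 CPM in microglia, Napepld at 26.7 to 53.5 CPM in oligodendrocytes and Mgll at 105 to 216 CPM in astrocytes.

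Cnr1, the CB1 receptor gene, was highest in Gad nuclei among the 7 classes. Cholinergic nuclei had 29.5 and 34.9 CPM in males and 23.7 and 24.1 CPM in females, Gad nuclei 57.1 and 65.5 CPM in males and 32.7 and 56.0 CPM in females and Slc17a nuclei 32.2 and 34.6 CPM in males and 19.5 and 31.2 CPM in females. In each library the Gad level was above both other neuron levels. The log2 fold of Gad over Slc17a nuclei was 0.79 ± 0.13 (SE; 1.73-fold higher, adjusted p = 3.5e-05; with no library block 0.79, adjusted p = 0.12), and that of cholinergic over Gad nuclei was -0.79 ± 0.15 (adjusted p = 0.00011).

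Glial classes had less Cnr1 than Gad nuclei. Astrocytes had 18.1 and 10.0 CPM in males and 18.2 and 27.4 CPM in females, and oligodendrocytes 24.8 and 23.6 CPM in males and 20.1 and 37.8 CPM in females. OPCs had 37.5 and 34.9 CPM in males and 19.9 and 28.2 CPM in females, and microglia 29.5 and 34.5 CPM in males and 17.8 and 32.0 CPM in females. As a share of the Gad level of the same library, these were 15.3% to 55.6% in astrocytes, 36.0% to 67.5% in oligodendrocytes, 50.3% to 65.7% in OPCs and 51.7% to 57.1% in microglia. They stand beside the shares of the 5 neuron genes given above, 40.7% to 55.7% in microglia for example, and the part of neuronal RNA in the glial Cnr1 level was not tested. The log2 fold over Gad nuclei was -1.60 ± 0.20 in astrocytes (adjusted p = 3.5e-08), -0.98 ± 0.12 in oligodendrocytes (adjusted p = 3.7e-08), -0.84 ± 0.17 in OPCs (adjusted p = 0.00013) and -1.11 ± 0.20 in microglia (adjusted p = 2.1e-05). By mean level the order was Gad, OPC, Slc17a, microglia, cholinergic, oligodendrocyte and astrocyte. Of neighbours in that order, Gad nuclei were called over OPCs and oligodendrocytes over astrocytes (adjusted p = 0.029), and the 4 steps between were not called. Fitted log2 folds went against the order for OPCs over Slc17a nuclei (-0.05 ± 0.20) and microglia over cholinergic nuclei (-0.31 ± 0.24).

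At least 1 Cnr1 UMI was seen in 6.71% and 8.11% of microglia in males and 3.57% and 6.20% in females, at median depths of 1947 and 2062 UMIs in males and 1492 and 1473 in females. Gad nuclei, at median depths of 12483 and 12020 UMIs in males and 5868 and 6163 in females, had a Cnr1 UMI in 40.8% and 42.0% of nuclei in males and 16.7% and 28.7% in females. After thinning each nucleus to 1000 UMIs, the shares in microglia were 1.90% and 3.40% in males and 1.99% and 3.77% in females. In Gad nuclei they were 5.63% and 6.52% in males and 2.76% and 6.12% in females. The exact Clopper-Pearson 95% intervals of the thinned shares overlapped between microglia and Gad nuclei in every library, for example 0.393% to 5.45% in microglia and 4.93% to 6.40% in Gad nuclei of male 1, and the difference in shares was not tested. Such intervals cover counting error only. Among Gad nuclei the nucleus with most Cnr1 had 16 and 70 UMIs in males and 5 and 10 in females. The 5% of nuclei with most Cnr1 held 33.1% and 34.3% of its UMIs in males and 42.8% and 37.4% in females. No share to be had from counting error and depth alone was taken, nor that of another gene. Whether Cnr1 was unevenly spread was therefore not tested.

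**Figure D2:**
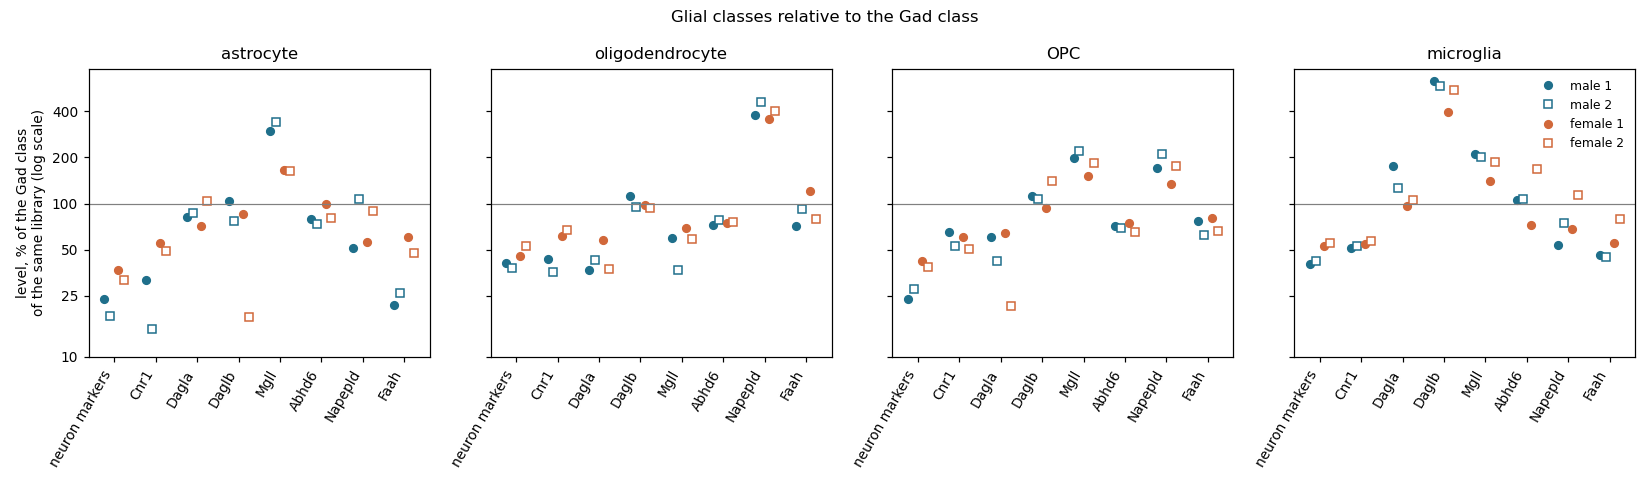
Level of the 5 summed neuron genes and of each member in 4 glial classes as a percent of the Gad class of the same library (y axis, log scale), with 1 point per library. The neuron genes lie between 18.5% and 55.7%, Cnr1 lies between 15.3% and 67.5%, and Daglb in microglia, Napepld in oligodendrocytes and Mgll in astrocytes lie above 100.

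Dagla, the diacylglycerol lipase tied to signalling at synapses, was lower in both classes of the oligodendrocyte lineage than in each of the other 5, which did not differ from each other by a called amount. Oligodendrocytes had 13.7 and 15.4 CPM in males and 21.4 and 16.3 CPM in females, and OPCs 22.2 and 15.1 CPM in males and 23.9 and 9.39 CPM in females. Astrocytes had 30.2 and 31.4 CPM in males and 26.6 and 45.7 CPM in females, and microglia 65.3 and 45.3 CPM in males and 35.6 and 46.4 CPM in females. Cholinergic nuclei had 34.9 and 41.2 CPM in males and 41.8 and 25.2 CPM in females, Gad nuclei 37.0 and 36.0 CPM in males and 36.9 and 43.9 CPM in females and Slc17a nuclei 35.6 and 31.3 CPM in males and 31.5 and 38.7 CPM in females. These ranges overlapped between the 3 neuron classes, and none of their pairs was called. Every oligodendrocyte and OPC value was below every Gad value. The log2 fold was -1.21 ± 0.14 in oligodendrocytes over Gad nuclei (2.31-fold lower, adjusted p = 8.4e-09) and -1.22 ± 0.22 in OPCs over Gad nuclei (adjusted p = 2e-05). In the order by mean level (microglia, Gad, cholinergic, Slc17a, astrocyte, OPC, oligodendrocyte) the step of astrocytes over OPCs was the one called (adjusted p = 0.0078).

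Daglb, the second diacylglycerol lipase, known as the main one in myeloid cells, stood apart in microglia. There it had 145 and 134 CPM in males and 83.9 and 137 CPM in females, against 23.1 and 23.0 CPM in males and 21.3 and 24.9 CPM in females for Gad nuclei. In every library the microglial value was above that of each other class. Microglia over Gad nuclei gave a log2 fold of 2.22 ± 0.14 (4.66-fold, 95% interval 1.93 to 2.51 in log2, adjusted p = 7.8e-15), and the call held under all 12 alternatives tried, with log2 folds from 2.01 to 2.46. Relative to the Gad class of the same library Daglb in microglia was at 395% to 631%, while the neuron genes were at 40.7% to 55.7%. The other 6 classes had 24.1 and 26.0 CPM in males and 28.2 and 26.8 CPM in females (Slc17a), 22.9 and 22.9 CPM in males and 16.1 and 15.7 CPM in females (cholinergic), 25.8 and 24.5 CPM in males and 19.9 and 35.2 CPM in females (OPC), 25.9 and 22.0 CPM in males and 20.7 and 23.3 CPM in females (oligodendrocyte) and 24.1 and 17.6 CPM in males and 18.2 and 4.57 CPM in females (astrocyte) beside the Gad values. Among those 6, only Slc17a nuclei and astrocytes differed by a called amount (log2 fold of astrocytes over Slc17a nuclei -0.55 ± 0.22, adjusted p = 0.039), and that call was lost under 8 alternatives (adjusted p from 0.052 to 0.33), among them without male 2 and without female 2. Of nuclei thinned to 1000 UMIs, 12.7% and 16.3% of microglia in males and 9.93% and 18.4% in females had a Daglb UMI. In Gad nuclei the thinned share was 2.23% and 2.04% in males and 1.98% and 2.53% in females. Before thinning, 31.7% and 35.8% of microglia in males and 18.5% and 25.9% in females had one, and 26.6% and 25.6% of Gad nuclei in males and 12.4% and 16.3% in females, at the depths given for Cnr1.

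Mgll, the lipase that removes most 2-arachidonoylglycerol in brain, was highest in astrocytes, OPCs and microglia. Astrocytes had 190.0 and 216 CPM in males and 105 and 117 CPM in females, OPCs 126 and 139.7 CPM in males and 95.6 and 132 CPM in females and microglia 135 and 127 CPM in males and 89.0 and 133 CPM in females. Oligodendrocytes had 38.1 and 23.3 CPM in males and 43.8 and 42.0 CPM in females, and cholinergic nuclei 51.8 and 44.0 CPM in males and 36.1 and 55.5 CPM in females. Gad nuclei had 63.6 and 63.0 CPM in males and 63.5 and 71.4 CPM in females, below all values of the 3 high glial classes, and Slc17a nuclei 42.1 and 37.9 CPM in males and 31.5 and 38.7 CPM in females. The log2 fold over Gad nuclei was 1.27 ± 0.15 in astrocytes (2.41-fold, adjusted p = 9.1e-09), and it stayed called under 12 of 12 alternatives, between 1.08 and 1.46. It was 0.87 ± 0.15 in OPCs (adjusted p = 1.9e-05), 0.66 ± 0.17 in microglia (adjusted p = 0.0015) and -0.83 ± 0.15 in oligodendrocytes (adjusted p = 9.3e-06). Gad over Slc17a nuclei gave 0.76 ± 0.15 (adjusted p = 0.00056), lost with no library block (adjusted p = 0.059) and with thinning (adjusted p = 0.42). The 3 high glial classes were not called as neighbours (astrocytes over OPCs, adjusted p = 0.08), though astrocytes were called over microglia (log2 fold 0.61 ± 0.19, adjusted p = 0.0083), a call lost without male 1 (adjusted p = 0.067) and with library totals (adjusted p = 0.084). Thinned to 1000 UMIs, 18.8% and 21.1% of astrocytes in males and 12% and 9.94% in females had an Mgll UMI, and 6.06% and 6.07% of Gad nuclei in males and 5.68% and 5.82% in females. Unthinned, the shares were 48.9% and 50.8% of astrocytes in males and 22.7% and 20.8% in females, and 40.0% and 40.3% of Gad nuclei in males and 24.7% and 29.3% in females.

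Abhd6, a serine hydrolase that breaks down part of the 2-arachidonoylglycerol on the receiving side of synapses, varied little between classes, with no log2 fold in any pair beyond 0.63 in size. Astrocytes had 64.3 and 59.0 CPM in males and 74.2 and 66.3 CPM in females, oligodendrocytes 59.2 and 62.6 CPM in males and 55.6 and 62.3 CPM in females and OPCs 58.6 and 55.9 CPM in males and 55.8 and 54.0 CPM in females. Microglia had 86.4 and 86.3 CPM in males and 53.4 and 137 CPM in females, a range that took in all classes but the cholinergic one. It had 52.4 and 51.5 CPM in males and 42.7 and 47.2 CPM in females in cholinergic nuclei, 81.3 and 80.2 CPM in males and 74.2 and 82.2 CPM in females in Gad nuclei and 78.6 and 76.3 CPM in males and 64.0 and 69.9 CPM in females in Slc17a nuclei. Called folds were small: -0.62 ± 0.12 in cholinergic over Gad nuclei (1.53-fold lower, adjusted p = 0.00019), -0.56 ± 0.13 in OPCs (adjusted p = 0.00083, with thinning 0.082) and -0.41 ± 0.10 in oligodendrocytes (adjusted p = 0.00078). No pair of neighbours in the order by mean level (microglia, Gad, Slc17a, astrocyte, oligodendrocyte, OPC, cholinergic) was called.

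Napepld, the phospholipase that releases anandamide and related amides, was highest in oligodendrocytes. They had 44.7 and 53.5 CPM in males and 26.7 and 51.1 CPM in females, and OPCs had 19.9 and 24.5 CPM in males and 9.96 and 22.3 CPM in females. Gad nuclei had 11.7 and 11.6 CPM in males and 7.47 and 12.7 CPM in females. In each library oligodendrocytes were first and OPCs next. The log2 fold over Gad nuclei was 2.01 ± 0.12 in oligodendrocytes (4.02-fold, adjusted p = 1.6e-15) and 0.78 ± 0.21 in OPCs (adjusted p = 0.0022, with no library block 0.077), and oligodendrocytes were called over OPCs as well (1.23 ± 0.19, adjusted p = 2.6e-06). The fold of oligodendrocytes over Gad nuclei was called under 11 of 11 alternatives that could test it, from 1.88 to 2.15. Slc17a nuclei had 18.0 and 12.5 CPM in males and 7.60 and 13.4 CPM in females, and cholinergic nuclei 13.9 and 11.4 CPM in males and 3.80 and 7.34 CPM in females. Astrocytes had 6.03 and 12.6 CPM in males and 4.20 and 11.4 CPM in females, and microglia 6.32 and 8.63 CPM in males and 5.09 and 14.4 CPM in females. In the order by mean level these 4 classes and Gad nuclei were neighbours without a called step. Slc17a nuclei were nevertheless called over astrocytes and over microglia. With 1 library left out in turn, those log2 folds ranged from 0.25 to 1.09 and from 0.42 to 1.24. They rest on few UMIs: astrocytes held 6 and 10 of Napepld in males and 3 and 5 in females. Microglia held 3 and 4 in males and 2 and 9 in females. Thinned to 1000 UMIs, a Napepld UMI was seen in 5.34% and 6.03% of oligodendrocytes in males and 3.16% and 6.11% in females. The share in Gad nuclei was 1.25% and 1.13% in males and 0.649% and 1.39% in females. Unthinned shares were 13.9% and 14.9% of oligodendrocytes in males and 6.15% and 10.7% in females, at median depths of 2163 and 2100 UMIs in males and 1853 and 1504 in females, and 13.8% and 13.2% of Gad nuclei in males and 4.34% and 8.63% in females.

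Faah, the amidase that hydrolyses anandamide, was highest in Slc17a nuclei and lowest in astrocytes by mean level. Astrocytes had 7.04 and 8.79 CPM in males and 19.6 and 22.9 CPM in females, microglia 14.8 and 15.1 CPM in males and 17.8 and 38.4 CPM in females and OPCs 24.6 and 21.0 CPM in males and 25.9 and 31.7 CPM in females. Oligodendrocytes had 22.8 and 31.2 CPM in males and 39.2 and 38.1 CPM in females, and cholinergic nuclei 21.7 and 22.3 CPM in males and 24.7 and 23.1 CPM in females. Gad nuclei had 32.1 and 33.6 CPM in males and 32.3 and 48.2 CPM in females, and Slc17a nuclei 45.7 and 52.2 CPM in males and 36.9 and 61.0 CPM in females. The Gad value was below the Slc17a value in each library. The log2 fold of Gad over Slc17a nuclei was -0.52 ± 0.12 (adjusted p = 0.0029). That call was lost without male 1 (-0.49, adjusted p = 0.059), without male 2 (-0.44, adjusted p = 0.15) and with no library block (-0.46, adjusted p = 0.71). Astrocytes over Gad nuclei gave -1.45 ± 0.23 (2.74-fold lower, adjusted p = 1.5e-06), and microglia over Gad nuclei -0.94 ± 0.22 (adjusted p = 0.00058).

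Within the Slc17a class, nuclei with at least 2 UMIs of Slc17a7 and fewer of Slc17a6 were set against the converse. Slc17a7 marks mostly cortical and related glutamatergic neurons, Slc17a6 mostly subcortical ones. There were 36 and 27 Slc17a7 nuclei in males and 2 and 22 in females, and 328 and 344 Slc17a6 nuclei in males and 138 and 128 in females. Cnr1 was higher in Slc17a7 nuclei, with 92.3 and 114 CPM in males and 89.4 and 82.8 CPM in females, than in Slc17a6 nuclei, with 24.4 and 25.9 CPM in males and 19.5 and 20.8 CPM in females. The value of female 1 rests on 1 UMI. Values of the 2 kinds did not overlap, and the log2 fold was 2.12 ± 0.24 (4.34-fold, 95% interval 1.65 to 2.59 in log2, adjusted p = 1.5e-16). Faah had 103 and 116 CPM in males and 179 and 112 CPM in females in Slc17a7 nuclei, where female 1 rests on 2 UMIs, and 36.8 and 44.1 CPM in males and 36.7 and 53.4 CPM in females in Slc17a6 nuclei. Again there was no overlap, with a log2 fold of 1.48 ± 0.22 (95% interval 1.04 to 1.91, adjusted p = 1.2e-09).

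Mgll was the third member called, all 3 being higher in Slc17a7 nuclei, beside 11% of all 7799 genes called in this comparison in either direction. It had 98.6 and 43.2 CPM in males and 0 and 41.4 CPM in females in Slc17a7 nuclei and 34.1 and 35.9 CPM in males and 32.1 and 36.2 CPM in females in Slc17a6 nuclei, so male 1 stood above the rest and female 1 had no UMI. Its log2 fold of 0.96 ± 0.25 (adjusted p = 0.0024) fell to 0.26 without male 1 (adjusted p = 0.98). It also lost its call without male 2 (1.14, adjusted p = 0.068), under DESeq2 (0.68, adjusted p = 0.59) and with no library block (0.96, adjusted p = 0.12). The calls for Cnr1 and Faah held under all 11 alternatives each, from 1.98 to 2.15 and from 1.35 to 1.51. Dagla, Daglb, Napepld and Abhd6 were not called, with log2 folds of 0.59 ± 0.28, 0.56 ± 0.31, 0.89 ± 0.35 and -0.01 ± 0.24 in that order. The median log2 fold of the 7 members was 0.89, beside -0.03 over all genes.

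The Gad class was divided by raw UMIs of 5 genes. Drd1 and Drd2, dopamine receptor genes that mark the 2 main kinds of striatal projection neuron, needed at least 2 UMIs, as did Moxd1. Tshz1, a transcription factor gene of a further striatal and amygdalar kind, and Sst, the somatostatin gene, needed at least 3, and nuclei over 2 or more thresholds were left out. Male libraries held 150 and 127 Drd1, 180 and 180 Drd2, 277 and 240 Tshz1, 202 and 193 Moxd1 and 37 and 33 Sst nuclei, and female libraries 18 and 55, 106 and 58, 88 and 58, 58 and 53, and 5 and 48. The other Gad nuclei numbered 2981 and 2977 in males and 2801 and 2447 in females. Adora2a, a Drd2-neuron marker outside the rule, was at 37.0 to 39.5 CPM in Drd2 nuclei and at most 5.80 CPM in any other part. Of the markers checked, 3 of 6 had their highest mean in Drd1 nuclei, 4 of 7 in Drd2 nuclei and 1 of 3 in Sst nuclei, so the part labels stand for their threshold gene.

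Mgll set Drd2 nuclei apart from all other parts. They had 166 and 138 CPM in males and 172 and 143 CPM in females. Drd1 nuclei had 87.1 and 78.0 CPM in males and 153 and 92.8 CPM in females, and Tshz1 nuclei 44.1 and 46.6 CPM in males and 39.7 and 39.4 CPM in females. In each library Drd2 nuclei were above Drd1 nuclei and Tshz1 nuclei were below both. Moxd1 nuclei had 59.5 and 59.5 CPM in males and 49.3 and 97.9 CPM in females, Sst nuclei 87.9 and 74.9 CPM in males and 32.1 and 60.2 CPM in females and the other Gad nuclei 56.0 and 57.3 CPM in males and 58.4 and 68.1 CPM in females. The log2 fold of Drd2 over the other Gad nuclei was 1.44 ± 0.09 (2.71-fold, 95% interval 1.26 to 1.62, adjusted p = 2.4e-16), called under 12 of 12 alternatives between 1.37 and 1.53. Drd2 over Drd1 nuclei gave 0.84 ± 0.12 (adjusted p = 3.9e-06, with no library block 0.18). Drd1 over Moxd1 nuclei gave 0.51 ± 0.14 (adjusted p = 0.007), lost without male 1 (adjusted p = 0.14), without male 2 (adjusted p = 0.059) and with no library block (adjusted p = 0.13). Tshz1 over the other Gad nuclei gave -0.38 ± 0.11 (adjusted p = 0.018), a call lost under 6 of 12 alternatives, among them each library left out in turn (adjusted p from 0.052 to 0.19).

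Napepld was higher in Tshz1 nuclei than in Drd1, Drd2 and the other Gad nuclei, while Mgll was lower there than in each of these. The mean level of Napepld was 22.9 CPM in Sst, 19.0 CPM in Tshz1 and 15.9 CPM in Moxd1 nuclei. The steps between these 3 were not called (adjusted p = 0.088 for Sst and Tshz1, 0.58 for Tshz1 over Moxd1). The Sst mean was raised by female 1, at 64.3 CPM from 2 UMIs. The fitted log2 fold of Sst over Tshz1 nuclei was -1.02 ± 0.36, so it went against the order by mean. Tshz1 nuclei had 16.7 and 20.8 CPM in males and 18.9 and 19.7 CPM in females, and Moxd1 nuclei 17.6 and 15.3 CPM in males and 11 and 19.6 CPM in females. The other Gad nuclei had 11.5 and 11.1 CPM in males and 7.12 and 12.9 CPM in females. Drd1 nuclei had 7.56 and 6.03 CPM in males and 7.29 and 3.87 CPM in females, and Drd2 nuclei 7.21 and 9.21 CPM in males and 4.89 and 6.49 CPM in females, all below every Tshz1 value. The log2 fold of Tshz1 nuclei was 0.78 ± 0.15 over the other Gad nuclei (adjusted p = 0.00027), 1.24 ± 0.22 over Drd2 nuclei (adjusted p = 4.5e-05) and 1.53 ± 0.26 over Drd1 nuclei (adjusted p = 2.9e-05). Without male 2 the fold over the other Gad nuclei was 0.73 with an adjusted p of 0.054, and with no library block 0.85 with an adjusted p of 0.15. Moxd1 over the other Gad nuclei gave 0.56 ± 0.18 (adjusted p = 0.028), lost without male 1 (0.51, adjusted p = 0.32), without male 2 (0.66, adjusted p = 0.14), under DESeq2 (0.60, adjusted p = 0.091) and with no library block (0.61, adjusted p = 0.43). Sst nuclei, with 4.71 and 10.1 CPM in males and 64.3 and 12.6 CPM in females, rest on 2 to 5 UMIs a library and had no called pair.

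Cnr1 was lower in Tshz1 nuclei, which had 43.1 and 41.1 CPM in males and 28.4 and 30.3 CPM in females, than in the other Gad nuclei, which had 59.8 and 69.8 CPM in males and 32.7 and 57.2 CPM in females. Drd2 nuclei had 66.7 and 60.9 CPM in males and 24.4 and 46.8 CPM in females, and Drd1 nuclei 53.3 and 57.5 CPM in males and 43.7 and 48.3 CPM in females. In each library the Tshz1 value was below that of the other Gad nuclei. Their log2 fold was -0.59 ± 0.12 (adjusted p = 0.00029), which lost its call without male 2 (-0.47, adjusted p = 0.15), under DESeq2 (-0.55, adjusted p = 0.12) and with no library block (-0.54, adjusted p = 0.79). Moxd1 nuclei had 43.6 and 51.8 CPM in males and 24.6 and 63.6 CPM in females, and their fold of -0.38 ± 0.13 over the other Gad nuclei (adjusted p = 0.034) was lost under 5 of 12 alternatives, including without male 1 (-0.28, adjusted p = 0.49) and without male 2 (-0.31, adjusted p = 0.50). Sst nuclei had 61.2 and 81.0 CPM in males and 289 and 67.8 CPM in females, where the value of female 1 rests on 9 UMIs in 5 nuclei. In the order by mean (Sst, other Gad, Drd1, Drd2, Moxd1, Tshz1) no step between neighbours was called. The fitted log2 fold of Drd1 over Drd2 nuclei, -0.16 ± 0.15, went against that order.

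**Figure D3:**
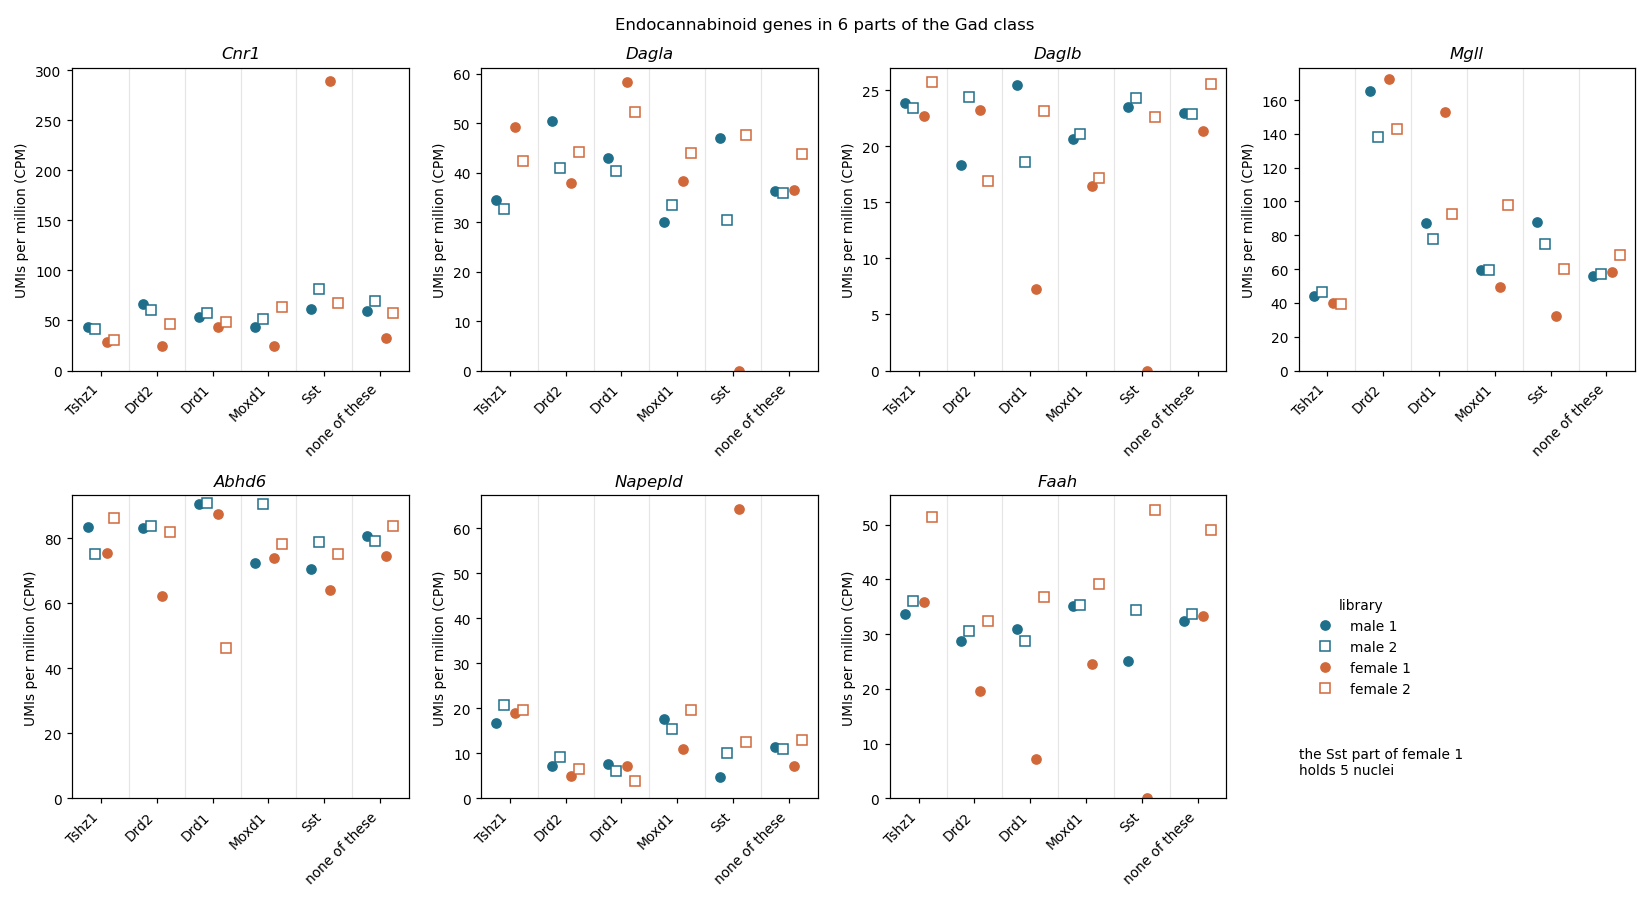
Level of each member (y axis, CPM, linear from 0) in the 6 parts of the Gad class (x axis), with 1 point per library. Mgll lies at 138 to 172 CPM in Drd2 nuclei and 39.4 to 46.6 CPM in Tshz1 nuclei, and the highest Cnr1 point, 289 CPM in Sst nuclei of female 1, rests on 9 UMIs.

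Dagla was called in 2 of the 15 pairs of parts. Drd2 nuclei had 50.5 and 41.0 CPM in males and 37.9 and 44.2 CPM in females, against 36.3 and 35.9 CPM in males and 36.5 and 43.8 CPM in females in the other Gad nuclei and 30.1 and 33.4 CPM in males and 38.3 and 44.1 CPM in females in Moxd1 nuclei. The log2 fold over the other Gad nuclei was 0.32 ± 0.10 (adjusted p = 0.019), and over Moxd1 nuclei 0.48 ± 0.14 (adjusted p = 0.0094). Neither pair was called without male 1 or without male 2, each of which left Dagla with 0 called pairs. Daglb, Faah and Abhd6 were called in 0 pairs of parts by edgeR, where 0, 2 and 0 pairs had an unadjusted p under 0.05. Their log2 folds lay between -0.20 and 0.25 for Daglb, -0.31 and 0.18 for Faah, and -0.13 and 0.22 for Abhd6. Abhd6, for example, had 83.2 and 83.8 CPM in males and 62.3 and 81.8 CPM in females in Drd2 nuclei and 83.4 and 75.2 CPM in males and 75.6 and 86.3 CPM in females in Tshz1 nuclei.

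In all, Mgll was called in 11 of 15 pairs, Napepld in 6, Cnr1 in 5 and Dagla in 2, where 2.87% to 23.5% of all 11806 genes were called in a pair. Leaving out male 1 took Mgll to 7 pairs and Cnr1 to 2, and leaving out male 2 took Mgll to 7 and Cnr1 to 0. Each part was also set against the mean of the other 5. Members called were 1 higher (Mgll) and none lower in Drd2 nuclei, where 15.3% of all genes were called, and 1 lower (Napepld) in Drd1 nuclei (6.59%). In Tshz1 nuclei 1 was higher (Napepld) and 2 lower (Cnr1 and Mgll), with 11.8% of all genes called, and in Moxd1 nuclei 1 was higher (Napepld) and 1 lower (Mgll), with 18.8%. None of the 7 was called in Sst nuclei (3.39% of all genes). The median log2 fold of the 7 members lay between -0.17 and 0.06 in these 5 comparisons, and that of all genes between -0.03 and 0.02.

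The other Gad nuclei, the bulk of the class, were divided further by single genes for description, with no test. Of 12 genes tried, 7 gave at least 20 nuclei in every library. Of the 49 pairs of a member and a gene, 10 were higher and 11 lower in all 4 libraries. The same share was not taken over all genes, so these counts cannot be read as particular to the members. Prkcd nuclei, with at least 2 UMIs of a protein kinase gene known in a kind of central amygdala neuron, were few, 83 and 99 in males and 33 and 21 in females. They had 180.1 and 171 CPM of Cnr1 in males and 111 and 96.5 CPM in females, against 55.3 and 65.2 CPM in males and 30.9 and 56.4 CPM in females in nuclei without. The ratio was 1.71 to 3.60 over the 4 libraries. Cnr1 was also higher in all 4 among Lamp5 nuclei (ratio 1.22 to 1.53) and Penk nuclei (1.10 to 1.67), and lower in all 4 among Esr1 nuclei (0.643 to 0.786) and Foxp2 nuclei (0.60 to 0.88).

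Foxp2 nuclei, 676 and 604 in males and 469 and 309 in females, had less Mgll and more Napepld than the rest. Mgll was at 36.3 and 41.3 CPM in males and 32.6 and 44.7 CPM in females in Foxp2 nuclei, against 61.8 and 61.3 CPM in males and 62.1 and 71.3 CPM in females in nuclei without. Napepld was at 15.4 and 15.9 CPM in males and 8.81 and 20.5 CPM in females in Foxp2 nuclei, against 10.2 and 9.73 CPM in males and 6.56 and 11.8 CPM in females. Lamp5 nuclei showed the reverse for both, with a ratio of 1.39 to 1.95 for Mgll and 0.261 to 0.991 for Napepld. Mgll was lower in all 4 libraries among Npsr1 nuclei (0.544 to 0.677) and Esr1 nuclei (0.590 to 0.805), and higher among Meis2 nuclei (1.11 to 1.60). Dagla was higher in all 4 among Meis2 nuclei (1.11 to 1.22) and lower among Npsr1 nuclei (0.574 to 0.917).

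**Figure D4:**
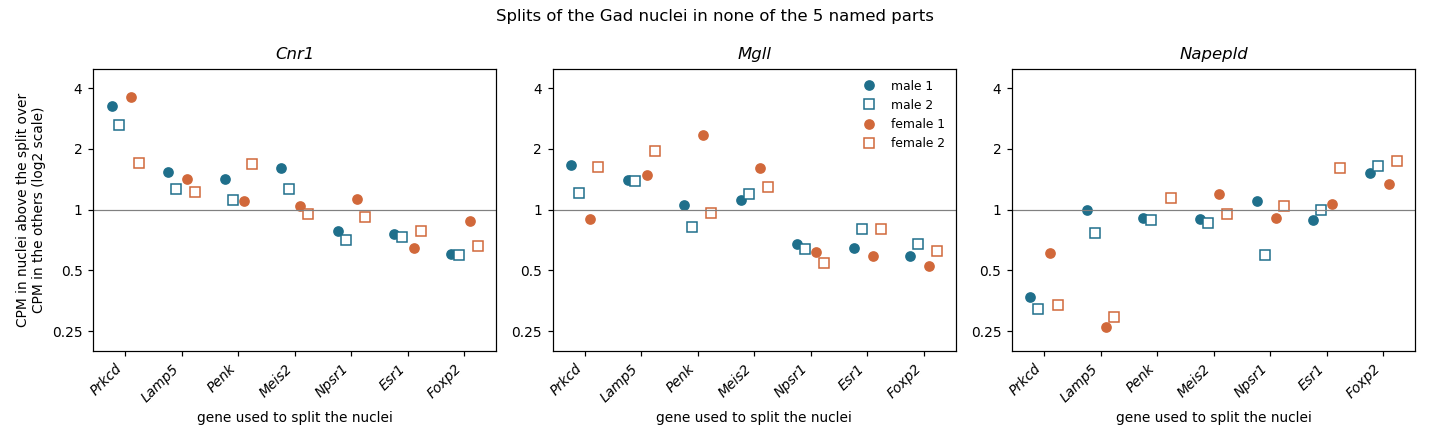
Ratio of the CPM in Gad nuclei above a threshold for 1 gene to the CPM in the others (y axis, log2 scale) for Cnr1, Mgll and Napepld, with 1 point per library and the gene used for the split on the x axis. Cnr1 in Prkcd nuclei lies at 1.71 to 3.60, Mgll in Foxp2 nuclei at 0.525 to 0.673 and Napepld in Foxp2 nuclei at 1.34 to 1.74, and Napepld in Penk nuclei of female 1, with 0 UMIs, is not drawn.

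Males and females were compared in 12 classes or parts with at least 30 nuclei in every library, 2 libraries against 2, with edgeR and no block. No member was called in 81 tests, 5 of them with an unadjusted p under 0.05. By DESeq2, too, none was called. Of all genes, 0.0498% were called in cholinergic nuclei, 0.00545% in Gad, 0.0631% in Slc17a, 0.0555% in astrocyte, 0.023% in oligodendrocyte, 0.095% in OPC and 0.0503% in microglia nuclei. The shares were 0.0629% in Drd2, 0.0446% in Tshz1, 0.294% in Moxd1, 0% in the other Gad and 0.0654% in Slc17a6 nuclei. In 3 cases a member had too few UMIs to be tested, Faah in microglia and Napepld in astrocytes and microglia. An exact permutation test of a single value cannot give a two-sided p below 0.333 with 2 libraries against 2. The median log2 fold of the members tested lay between -0.16 in oligodendrocytes and 0.31 in microglia, and that of all genes between -0.04 and 0.01.

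Cnr1 showed how the libraries of 1 sex differed. In Gad nuclei, the values of 57.1 and 65.5 CPM in males and 32.7 and 56.0 CPM in females did not overlap, and the log2 fold of males over females was 0.56 ± 0.26 (95% interval -0.15 to 1.26, adjusted p = 0.38). Of 9708 genes with a mean of at least 5 CPM in each of the 7 classes, 48.5% did not overlap between the sexes in Gad nuclei. Female 1 was low and female 2 close to the males. The 6 Gad markers summed to 513 and 524 CPM in males and 236 and 439 CPM in females in this class, so the same library was low in them, and their part in the Cnr1 values was not tested. The SD of the log2 ratio of replicate 1 to 2 over all genes in Gad nuclei was 0.242 for males and 1.04 for females. Without female 1 the fold was 0.35 ± 0.06 (adjusted p = 1.6e-08), and without female 2 it was 0.93 ± 0.07 (adjusted p = 7.6e-14). In each of those fits the remaining female library is taken to vary like the males, and 51.1% and 56.3% of all genes were called in Gad nuclei, against 1 of 18345 genes with all 4 libraries. Among Drd2 nuclei the fold was 0.88 ± 0.27 (95% interval 0.24 to 1.52, adjusted p = 0.31).

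Mgll in astrocytes had 190.0 and 216 CPM in males and 105 and 117 CPM in females. All male values were above all female values, and the log2 fold was 0.92 ± 0.25 (95% interval 0.35 to 1.50, adjusted p = 0.35), with 0.87 without female 1 (adjusted p = 0.020, 6.19% of all genes called) and 1.01 without female 2 (adjusted p = 9e-05, 14.8% called). Faah in astrocytes had 7.04 and 8.79 CPM in males and 19.6 and 22.9 CPM in females, with a log2 fold of -1.35 ± 0.46 (95% interval -2.42 to -0.28, adjusted p = 0.45). These Faah values rest on 7 and 7 UMIs in males and 14 and 10 in females. Of the 9708 genes, 38.9% did not overlap between the sexes in astrocytes. Marker levels in the astrocyte class moved with sex as well. Its 8 astrocyte markers summed to 8398 and 8804 CPM in males and 7094 and 6449 CPM in females, 8 oligodendrocyte markers to 293 and 287 CPM in males and 658 and 686 CPM in females, 7 microglia markers to 48.2 and 52.7 CPM in males and 104 and 117 CPM in females, and the 5 neuron genes to 2316 and 1804 CPM in males and 2902 and 3629 CPM in females. The part of these in the Mgll and Faah values was not tested. Napepld in cholinergic nuclei had 13.9 and 11.4 CPM in males and 3.80 and 7.34 CPM in females, with 1.22 ± 0.48 (95% interval 0.08 to 2.37, adjusted p = 0.5). It rests on 23 and 20 UMIs in males and 4 and 7 in females. Cnr1 in Tshz1 nuclei had 0.57 ± 0.22 (95% interval 0.05 to 1.10, adjusted p = 0.42). These 4 and Cnr1 in Drd2 nuclei are the 5 with an unadjusted p under 0.05, and depth and software moved with sex in each.

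The intervals cover the spread among 4 libraries and not depth or software, which moved with sex. In Gad nuclei the log2 fold was -0.01 ± 0.10 for Mgll (95% interval -0.28 to 0.25), -0.07 ± 0.11 for Dagla (-0.39 to 0.25), 0.07 ± 0.13 for Daglb (-0.28 to 0.42) and 0.12 ± 0.09 for Abhd6 (-0.14 to 0.38). For Faah it was -0.21 ± 0.19 (-0.74 to 0.32) and for Napepld 0.30 ± 0.28 (-0.46 to 1.07). For Mgll, thinning the nuclei to 2000 UMIs gave 0.34, outside its interval. Without female 1 there were 7 called member tests, where 3.83% to 51.1% of all genes were called in a class or part, and without female 2 there were 8, where 9.92% to 56.3% were, and Cnr1 and Abhd6 in Gad nuclei, Cnr1 in the other Gad nuclei and Mgll in astrocytes were among both. The sex fold of Gad nuclei minus that of Slc17a nuclei was called for 0 of the 7 members by edgeR, none of them with an unadjusted p under 0.05, where 0.348% of all 15504 genes were called.

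**Figure D5:**
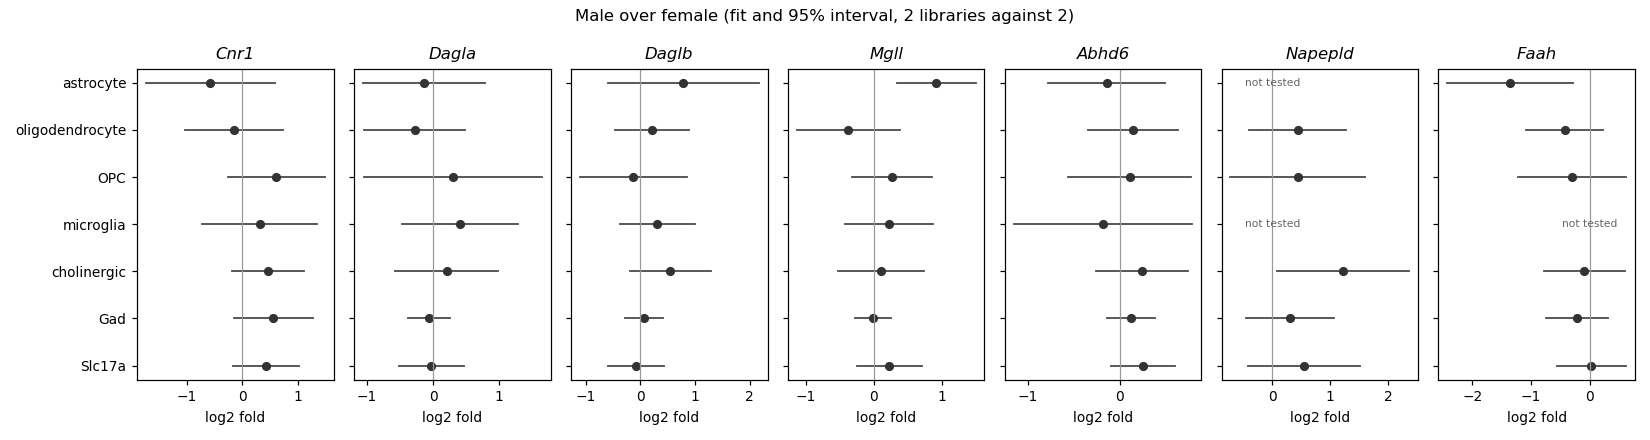
Log2 fold of males over females (x axis) of each member, with 1 panel per member and classes down the y axis. Points are edgeR fits and bars 95% intervals from 2 male and 2 female libraries, and no adjusted p is under 0.05. The interval of Mgll in astrocytes runs from 0.35 to 1.50, and that of Faah in astrocytes, which rests on 7 to 14 UMIs a library, from -2.42 to -0.28.

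Genes with the most similar pattern were sought over 13 kinds of nuclei that do not overlap (the 6 Gad parts, Slc17a7, Slc17a6, cholinergic and the 4 glial kinds), among 13014 genes. Likeness is Pearson's r of log2(CPM + 1) of the mean of the 4 libraries, a description across kinds that share libraries and depth. Daglb was nearest to Fcgr1, an immunoglobulin Fc receptor gene, Il10ra, the interleukin-10 receptor gene, and Rin3, with r of 0.97 each. For Cnr1 the nearest were Gm43376 (0.90), Nell1os (0.88) and Lmo3 (0.88), and for Faah Mpp2 (0.94), Thoc5 (0.93) and Slc6a7 (0.93), the gene of a proline transporter. Dagla was nearest to Iqsec2 (0.87), Atp9b (0.85) and Clip1 (0.85), and Abhd6 to Hspbp1, Eif2ak1 and Stx18 (0.88 each). Napepld was nearest to Tmeff2, Garre1 and Hs3st1 (0.82 each), and Mgll to Akt2 (0.79), Pfkfb2 (0.78) and Ramp1 (0.78). Within single libraries the lowest r of these genes was between 0.028 and 0.55. For the 3 genes nearest to Abhd6, r was 0.97 to 0.98 in female 1 and 0.21 to 0.80 in the other libraries. The Slc17a7 kind of female 1 held 2 nuclei with 0 Abhd6 UMIs, and its part in these values was not tested. The same kind held 2 Faah UMIs, and the Sst kind of female 1 held 9 Cnr1 UMIs in 5 nuclei. Their part in the r of Faah and Cnr1 was not tested either. For Gm43376, r with Cnr1 was 0.257 to 0.774 within single libraries, below the 0.90 of the mean. Between members, Dagla and Napepld had an r of -0.75, Faah and Mgll -0.58, Mgll and Napepld -0.57, Dagla and Abhd6 0.56 and Cnr1 and Faah 0.52.

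A list of 32 further endocannabinoid genes was read for the same classes, of which 20 were tested between classes. In astrocytes over Gad nuclei 8 were higher and 5 lower (median log2 fold 0.30, beside 0.00 over all genes), where 56% of all genes were called, and in oligodendrocytes 7 were higher and 6 lower (0.09, beside 0.06; 65% called). OPCs had 5 higher and 5 lower (0.07, beside 0.01; 46.6% called), microglia 5 higher and 7 lower (-0.25, beside 0.01; 55.2% called), and cholinergic nuclei 4 higher and 3 lower (-0.08, beside -0.02; 23% called). In Gad over Slc17a nuclei 1 was higher and 2 lower (-0.01, beside 0.03; 8.31% called), and in Slc17a7 over Slc17a6 nuclei 1 of 9 tested was higher and 1 lower (-0.10, beside -0.03; 11% called). None was called between males and females in any of the 12 classes or parts.

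Abhd12, a hydrolase gene with a known part in 2-arachidonoylglycerol breakdown in microglia, had 603 and 563 CPM in males and 315 and 387 CPM in females in microglia and 92.8 and 96.3 CPM in males and 79.4 and 97.6 CPM in females in Gad nuclei. Its log2 fold was 2.10 ± 0.11 (adjusted p = 5.3e-17), so it was high in the class where Daglb was high. Cnr2, the CB2 receptor gene, was too low to be tested, at 8.43 and 15.1 CPM in males and 10.2 and 1.60 CPM in females in microglia and at most 0.141 CPM in Gad nuclei. Ppara, a nuclear receptor for fatty acid amides, had 74.4 and 102 CPM in males and 91.0 and 73.1 CPM in females in astrocytes and 0.848 and 1.04 CPM in males and 1.45 and 1.69 CPM in females in Gad nuclei, with a log2 fold of 6.12 ± 0.28 (adjusted p = 1.5e-18).

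Of 13 listed genes of ligand synthesis 10 were tested between classes. Against Gad nuclei 4 were higher and 3 lower in oligodendrocytes (65% of all genes called) and 4 higher and 2 lower in astrocytes (56%). In OPCs 2 were higher and 2 lower (46.6%), and in microglia 4 higher and 4 lower (55.2%). Gdpd1, a further phosphodiesterase gene, was among those lower in astrocytes (log2 fold -1.06) and microglia (-0.89), with 0.05 in oligodendrocytes. Plaat3, a phospholipase and acyltransferase gene, had 114 and 130.2 CPM in males and 118 and 83.1 CPM in females in oligodendrocytes and 0.742 and 0.909 CPM in males and 3.42 and 1.03 CPM in females in Gad nuclei (log2 fold 6.45 ± 0.26, adjusted p = 2.4e-20). Gde1, a glycerophosphodiesterase gene, had 47.8 and 42.6 CPM in males and 62.2 and 94.3 CPM in females in oligodendrocytes and 22.1 and 23.3 CPM in males and 26.4 and 37.2 CPM in females in Gad nuclei (log2 fold 1.15 ± 0.12, adjusted p = 9.1e-10). Oligodendrocytes were also the class with most Napepld. Pla2g4e, which makes the precursor of anandamide, was instead lower in every glial class than in Gad nuclei and lower in Gad than in Slc17a nuclei, with 26.0 and 25.5 CPM in males and 16.8 and 26.7 CPM in females in Gad and 36.7 and 46.6 CPM in males and 31.5 and 46.1 CPM in females in Slc17a nuclei (log2 fold -0.76 ± 0.13, adjusted p = 0.00011). Among genes of CB1 partner proteins, Sgip1 and Gprasp1 were lower in all 4 glial classes than in Gad nuclei, and Cnrip1 in 3 of them. In these comparisons 46.6% to 65% of all genes were called in either direction, so such calls are not particular to these genes. Sgip1 had 285 and 246 CPM in males and 313 and 283 CPM in females in microglia and 644 and 631 CPM in males and 669 and 608 CPM in females in Gad nuclei (log2 fold -1.41 ± 0.10, adjusted p = 1.5e-13), and the part of neuronal RNA in its glial level was not tested. Fabp7, a fatty acid carrier gene of glia, was higher than in Gad nuclei in astrocytes (log2 fold 5.33 ± 0.41), OPCs (5.86 ± 0.37) and oligodendrocytes (2.46 ± 0.43).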

How the data were processed

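The data are single-nucleus RNA counts of 4 libraries, 2 male and 2 female. The authors deposited, per library, a sparse matrix of raw UMI counts per gene and barcode. Per the submitters' processing notes, reads were handled with Cell Ranger 6.0.1 and Seurat 5 on build mm10. The file headers record other versions of this software, 7.0.0 (female 1), 7.2.0 (female 2) and 9.0.1 (male 1 and male 2). The labels' protocols name more than 1 version of the 3′ reagents. How intronic reads were treated is not stated there.

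Analysis was limited to 31899 genes whose identifier every library lists, and 97.7% to 99.6% of UMIs fell in them. Nuclei were filtered and classed from raw UMIs as described above, with no doublet removal beyond dropping nuclei in 2 or more classes. The automatic Scrublet threshold marked at most 0.0218% of barcodes in a library and so did not work. Nuclei are not replicates, so UMIs were added up within each library and class. These sums were tested two-sided with edgeR 4.0.16 (glmQLFit and glmQLFTest, TMM scaling, filterByExpr) in R 4.3.3, adjusted over all genes tested by the Benjamini-Hochberg method at 0.05. Class and part comparisons had library as a block, and sex comparisons had none. Intervals of folds are 95%. The fitting steps were tested on simulated data. Other steps used Python 3.11.15, scanpy 1.11.5, numpy 2.4.6, scipy 1.17.1 and pandas 2.3.3, with a pseudocount of 1 for likeness.

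The 7 members and all lists were chosen with earlier results of these data known. All members are named in every class, together with the 3 genes most like each over 13 kinds, and further endocannabinoid genes where called or where they mark a role. Alternatives were DESeq2 1.42.0, median-ratio size factors, no filter on low counts, removal of the highest doublet scores at 0.8% per 1000 barcodes, 3 marker UMIs, nuclei thinned to 2000 UMIs before classing, nuclei counted in every part they meet, the library or replicate block left out or added, and each library left out. Library totals without scaling, and the minimum of 5 CPM for shares of genes without overlap, were added after seeing the data.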

Additional observations from a re-analysis of the deposited data

Results flagged for a closer look

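In 9 cases the male libraries lay above the female ones in 1 class and below them in another, with no overlap in either. These are 6.12% of the 147 combinations of a member and a pair of classes, beside 3.15% over the 9708 genes with a mean of at least 5 CPM in each class, of which 38.9% to 48.5% did not overlap between the sexes in a single class. The values are log2 ratios of the mean CPM of males over females, and the differences between classes were not tested. No member was called between the sexes in any of these classes, and with 2 libraries a sex, depth, software and barcode set cannot be told apart from sex.

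Cnr1 had a ratio of -0.70 in astrocytes, where males were lower. It was 0.43 in cholinergic nuclei, a difference of 1.13 from astrocytes, 0.47 in Gad nuclei (difference 1.16) and 0.40 in Slc17a nuclei (difference 1.09). In OPCs it was 0.59, so that astrocytes minus OPCs gave -1.29. Mgll had a ratio of 0.87 in astrocytes and -0.48 in oligodendrocytes, a difference of 1.36. Daglb had 0.52 in cholinergic and -0.13 in Slc17a nuclei, a difference of 0.66. Abhd6 had -0.19 in astrocytes and 0.21 in both cholinergic and Slc17a nuclei, a difference of 0.40 each, and 0.06 in OPCs, where astrocytes minus OPCs gave -0.25. The 5 neuron genes in astrocytes were at 24.1% and 18.5% of the Gad level in males and 36.9% and 31.6% in females, so they were lower in males as Cnr1 was (18.1 and 10.0 CPM in males and 18.2 and 27.4 CPM in females), and their part in the Cnr1 values was not tested.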

How the results depend on the processing

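No called fold between classes or parts reversed under any alternative. Of 77 called class folds 49 kept their call under every alternative that gave a value, as did 11 of 32 part folds and 2 of 3 between Slc17a7 and Slc17a6 nuclei. Most part calls that were lost were lost without a male library (15 without male 1, 16 without male 2), with no library block (20) or under DESeq2 (9). Thinning to 2000 UMIs left too few counts for most members, so that 31 of the 77 class folds and 10 of 18 sex folds had a value, and none of the part or Slc17a7 folds. The sex effect in Gad minus Slc17a nuclei was called for 0 members under each of its alternatives.

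With 1 library left out in turn, called member tests between the sexes numbered 0 to 8, where up to 2.03% of all genes in a class or part were called without 1 male library and up to 56.3% without 1 female library. Pairs of classes called ranged from 6 to 11 for Cnr1, 9 to 14 for Faah and 5 to 12 for Abhd6. Pairs of parts ranged from 0 to 6 for Cnr1, 7 to 10 for Mgll and 0 to 3 for Dagla. For Abhd6 classes the count was 4 when nuclei were thinned and 5 with no library block. For parts, no library block gave 0 pairs for Cnr1, 5 for Mgll and 0 for Dagla, and DESeq2 gave 1 pair each for Cnr1 and Dagla. The causes were not tested.

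No male over female fold was called in a setting that changed its sign. Mgll in Gad nuclei, at -0.015 in all, became 0.017 with median-ratio size factors, 0.0169 with DESeq2, 0.068 without the filter and 0.34 with thinning. Others in Gad nuclei were Dagla at 0.016 without the filter, Daglb at -0.0068 with library totals and -0.043 with thinning, and Napepld at -0.28 with thinning. Cnr1 became -0.0022 in microglia with high doublet scores removed, and -0.19 with 3 marker UMIs in Moxd1 nuclei. With 1 library left out in turn, the fold ranged from -0.020 to 0.043 for Mgll, -0.34 to 0.051 for Faah and -0.085 to 0.013 for Dagla, all in Gad nuclei, and for Cnr1 from -0.45 to 0.36 in oligodendrocytes and -0.29 to 0.92 in Moxd1 nuclei.

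Same-numbered male and female libraries deviated together with correlations of -0.027 to 0.12 over the 12 classes or parts, so no strong pairing by number was seen. The ratio of replicates spread more in females than in males (SD 1.04 and 0.242 in Gad nuclei). A weak shared effect could be hidden by that, so pairing is not excluded. With the replicate block 0 member tests were called between the sexes, and 4 to 236 genes per class or part, against 0 to 31 without it. DESeq2 called 25 to 880 and the fit without a filter 0 to 640, with no member among them.

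Library totals in place of TMM scaling moved the median of all genes by up to 0.32, from -0.05 to -0.38 in cholinergic over microglia. In microglia over Gad nuclei genes called higher and lower numbered 4548 and 2413 with library totals and 3477 and 3356 with TMM. In cholinergic over Gad nuclei they numbered 1098 and 1917, and 1440 and 1415 with TMM. In Drd2 nuclei over the other parts they numbered 885 and 1076, and 1052 and 753 with TMM, and in Slc17a7 over Slc17a6 nuclei 462 and 598, and 459 and 395 with TMM. Depth limits the female parts most, where Sst nuclei of female 1 hold 5 nuclei.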
